A study of Mus musculus with 20 samples.

Results

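Dividing cells express a common set of genes. Before S phase, *Cdc6*, *Cdt1* and the Mcm2-7 helicase are loaded on replication origins, which geminin (*Gmnn*) prevents from happening again in the same cycle, and ribonucleotide reductase, thymidylate synthase and thymidine kinase supply the nucleotides. Later, cyclin B and *Cdk1* drive the entry into mitosis, in which kinesins, kinetochore proteins, the spindle checkpoint and the anaphase-promoting complex act in turn, and in which the factor *Foxm1* activates many of these genes. Most hepatocytes of the adult liver are at rest, and DNA damage can halt the cycle through p53 and its target *Cdkn1a*. Here 42 such genes, 29 of M phase and 13 of replication, were read in the liver of mice given benzo(a)pyrene (BaP), a polycyclic hydrocarbon whose metabolites bind to DNA.

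The animals were male Muta™Mouse (transgenic strain 40.6), which all carry a *lacZ* reporter transgene and were 25 weeks old. There were 5 in each of 4 groups: controls gavaged with olive oil (replicates 1 to 5) and mice gavaged with 25 (replicates 6 to 10), 50 (11 to 15) or 75 mg/kg/day BaP (16 to 20), all over 28 days, with the liver taken 3 days later. RNA of each liver, labeled with Cy5, was hybridized to 1 two-color array with Cy3-labeled reference RNA pooled from 11 mouse cell lines, so each value is a log2 ratio of liver over that reference. The samples are whole liver, in which fewer cells of a type and less RNA per cell cannot be told apart. The labels name both liver and lungs. The 7 hepatocyte markers with a present probe lay between 4.69 and 5.95 above the reference in the control arrays as a mean log2 ratio, and of 6 lung epithelium markers *Sftpb*, *Sftpc* and *Foxj1* were not above background, *Scgb3a2* had no probe matched, and *Scgb1a1* and *Sftpa1* had mean log2 ratios of 0.00 and 0.44 in the controls.

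The genes were found through the RefSeq accessions of the probes. A probe was matched for 40 of the 42, 27 of M phase and 13 of replication, and none for *Mki67* and *Cenpf*. They had 45 present probes, and the brightest of each gene was used. All 40 passed the presence filter (brighter than the negative controls on 4 or more of the 5 arrays in 1 or more groups) and 38 passed it in all 4 groups, among 27346 present probes and 12986 genes. On all 20 arrays 34 genes were well above background, 21 of M phase and all 13 of replication. The dim ones were *Aurkb* (10 of 20 arrays), *Bub1* (14), *Ndc80* (12), *Kif11* (15), *Top2a* (18) and *Ttk* (3), all M-phase genes.

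All 40 genes had less RNA in the control liver than in the reference, as a group mean. The median log2 ratio of control liver over reference was -3.02 for the M-phase genes and -2.63 for the replication genes, or 8.11-fold and 6.18-fold below the reference, where the median of all present probes was 0.03 and 48.0% of them lay below 0. On every array with a value, 39 of the 40 genes lay below 0. The exception was *Tk1*, the salvage thymidine kinase, which was also the nearest to the reference at -0.59 ± 0.36 in the controls (SD, n = 5) and reached 0.05 in 1 animal at 50 mg/kg/day. The lowest ratio was that of *Cenpe*, a kinesin of the kinetochore, at -5.09 ± 0.55 (SD, n = 5). Ratios of different genes are set by the reference as well as by the liver, so their order is not an order of expression.

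**Figure D1:**
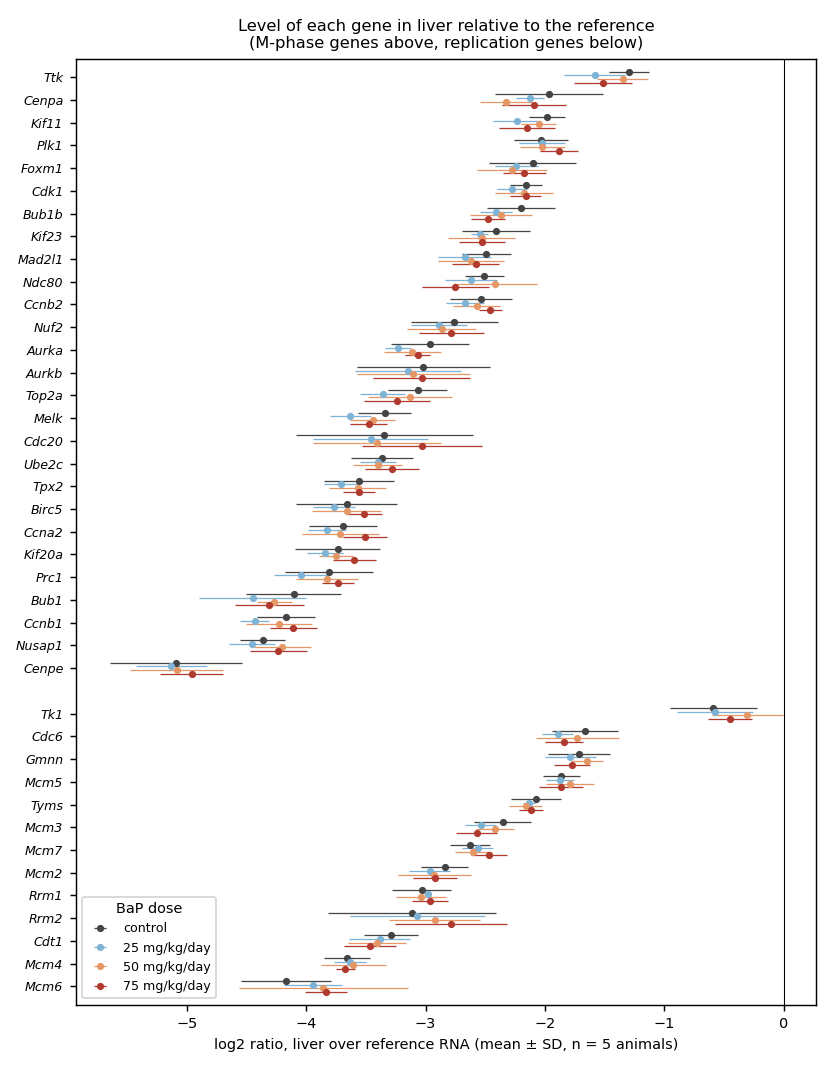
Mean log2 ratio of liver over reference RNA (horizontal axis, log2 scale) for each of the 40 genes (vertical axis), with M-phase genes above and replication genes below, ordered by the control mean. Points are means of 5 animals (4 for *Rrm2* at 50 mg/kg/day) and bars are SDs. Every mean lies below 0, and in every row the bars of each dose group overlap the bar of the controls.

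The M-phase and replication promoters held some motifs in unlike shares, and the choice of genes did not use these motifs. RefSeq promoter windows (GRCm38.p6, 250 bases before to 50 after the start of the transcript) were matched by symbol for 35 of the 42 genes, 24 of M phase and 11 of replication. The core of the cell cycle homology region, TTTGAA, where the MuvB complexes that restrain or activate mitotic genes are known to bind, stood on either strand in 16 of the 24 M-phase promoters (66.7%) and in 1 of the 11 replication promoters (9.09%), where 20.2% of all 27025 genes had it. CCAAT stood in 18 M-phase (75.0%) and 7 replication promoters (63.6%), against 41.1% of all genes. TTTCGCGC, a form of the E2F site, stood in 1 M-phase (4.17%) and 3 replication promoters (27.3%), against 0.374% of all genes. Other forms of the E2F site were not counted, so a promoter without a match may still hold one. These are matches of letters, not sites shown to be bound, and the shares are given without a test. The motifs do not overlap each other in the windows printed here. Shown are *Cdk1*, the M-phase window that holds all 3 motifs, *Cdc20* and *Mcm6*, which varied most between animals among the genes of each group with a TTTGAA or a TTTCGCGC match, and *Mcm5*, the replication landmark with an E2F match, with the motifs on either strand in capitals.
Cdk1, GRCm38.p6 chr10:69352863-69353162, minus strand: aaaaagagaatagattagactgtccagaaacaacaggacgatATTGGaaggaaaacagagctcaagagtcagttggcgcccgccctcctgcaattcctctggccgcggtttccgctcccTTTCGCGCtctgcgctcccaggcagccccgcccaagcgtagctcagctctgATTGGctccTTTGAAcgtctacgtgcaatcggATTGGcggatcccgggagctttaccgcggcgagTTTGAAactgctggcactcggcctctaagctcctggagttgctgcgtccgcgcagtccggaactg
Cdc20, GRCm38.p6 chr4:118437294-118437593, minus strand: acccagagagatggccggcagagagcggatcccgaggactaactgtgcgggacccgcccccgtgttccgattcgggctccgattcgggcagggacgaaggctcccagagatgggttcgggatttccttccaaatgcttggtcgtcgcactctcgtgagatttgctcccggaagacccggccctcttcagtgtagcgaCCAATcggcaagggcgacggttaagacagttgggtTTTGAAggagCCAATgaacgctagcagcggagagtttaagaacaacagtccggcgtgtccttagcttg
Mcm5, GRCm38.p6 chr8:75109259-75109558, plus strand: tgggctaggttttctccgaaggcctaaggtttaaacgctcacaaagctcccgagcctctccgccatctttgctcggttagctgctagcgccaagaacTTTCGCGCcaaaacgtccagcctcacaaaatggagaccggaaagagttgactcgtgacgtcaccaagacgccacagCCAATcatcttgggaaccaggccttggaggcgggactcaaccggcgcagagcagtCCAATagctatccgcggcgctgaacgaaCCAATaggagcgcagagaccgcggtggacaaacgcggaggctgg
Mcm6, GRCm38.p6 chr1:128359656-128359955, minus strand: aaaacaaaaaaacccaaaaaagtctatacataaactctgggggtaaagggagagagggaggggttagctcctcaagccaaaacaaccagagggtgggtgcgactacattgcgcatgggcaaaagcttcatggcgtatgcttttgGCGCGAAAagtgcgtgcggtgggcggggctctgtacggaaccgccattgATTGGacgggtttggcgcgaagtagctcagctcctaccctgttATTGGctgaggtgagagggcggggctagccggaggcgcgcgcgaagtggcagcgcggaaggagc

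No gene of the list passed the test at any dose. At 25, 50 and 75 mg/kg/day, limma called 0 of 40 members (Benjamini-Hochberg adjusted p under 0.05 over all present probes and a fold change over 1.5), where 0%, 0% and 0.135% of all present probes were called. The lowest adjusted p of a member was 0.636, 0.746 and 0.452 in turn. Neither the linear trend with dose nor the comparison among the 4 groups called a member, against 0.157% and 0.0805% of all probes, and 0 members reached even an unadjusted p under 0.05, against 8.58% and 8.23% of all probes. For no member did all 5 exposed animals lie on the same side of all 5 controls, which 1.21%, 0.815% and 1.52% of all probes did at the 3 doses.

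The data were precise enough to bound most changes in the array ratios. These bounds hold for the log2 ratios of the arrays and not for changes measured by another method, such as RT-PCR. By RT-PCR the paper reports significantly more RNA of *Ccnb2*, *Prc1* and *Birc5* at the highest dose than in the controls. The array ratios did not show these rises. For *Cdkn1a* the paper reports a larger rise by RT-PCR than the array ratios gave. The bounds therefore do not exclude a rise in the RNA of such genes, and the cause of the difference was not tested. The 95% confidence interval lay within 1.5-fold in either direction for 34, 34 and 35 of the 40 genes at 25, 50 and 75 mg/kg/day, or 85.0%, 85.0% and 87.5%, against 80.0%, 80.8% and 77.4% of all present probes. The intervals that reached past 1.5-fold belonged mainly to the genes that vary most between animals or are dim, among them *Cdc20*, *Rrm2*, *Mcm6*, *Aurkb* and *Bub1*. The median SD between animals of a group was 0.226 for M-phase genes and 0.197 for replication genes, against 0.217 for all present probes. In the same arrays *Cdkn1a*, the p53-induced inhibitor of cyclin-dependent kinases, differed from the controls by 0.08, 0.64 and 1.60 on the log2 scale at the 3 doses (SE 0.22) and was called at 75 mg/kg/day (limma adjusted p = 0.00148), above all controls in 5 of 5 animals.

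**Figure D2:**
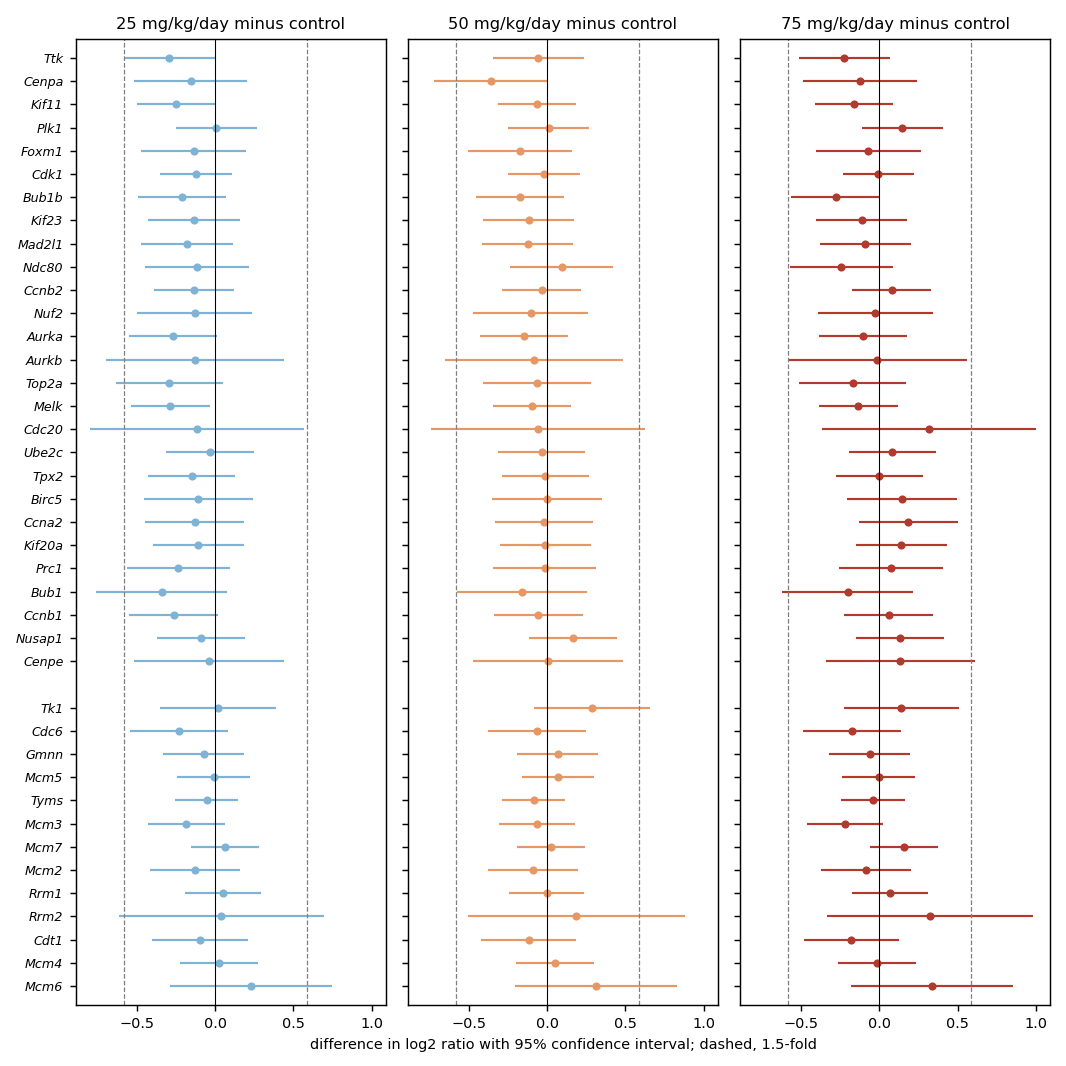
Difference in log2 ratio between each dose and the controls (horizontal axis) for each gene (vertical axis, M-phase above, replication below), with the 95% confidence interval of limma as a line. Dashed lines mark 1.5-fold. At 25 mg/kg/day 26 of 27 M-phase points lie left of 0, at 75 mg/kg/day 15 of 27, and no gene was called.

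The M-phase genes lay slightly below the controls at the lowest dose as a group. Their median log2 difference was -0.14 at 25, -0.06 at 50 and -0.01 at 75 mg/kg/day, with 26, 23 and 15 of 27 genes lower, while the median of all present probes was 0.00 at each dose. The replication genes had medians of -0.01, 0.03 and -0.01, with 7, 6 and 8 of 13 lower. At 25 mg/kg/day an unadjusted p under 0.05 was reached by 2 members, both lower, against 3.62% of all probes in that direction, and by 0 members upwards, against 4.18%. At 50 and 75 mg/kg/day it was reached by 0 members in either direction, against 2.94% and 4.69% of all probes downwards and 3.75% and 6.52% upwards. The genes of 1 animal are not independent, and no test was made of a list.

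The direction of the M-phase median relative to all probes depended on the scaling of the arrays at 75 mg/kg/day. There it was -0.12 with the authors' LOWESS ratios and 0.07 with the liver channel alone. At 25 mg/kg/day it was negative with each scaling, at -0.20 and -0.03 with these 2. With median centring in place of loess the M-phase median itself was 0.06, -0.20 and 0.17 at the 3 doses. The median of all probes then stood at 0.11, -0.08 and 0.10, which leaves -0.05, -0.13 and 0.06 relative to all probes. With the liver channel alone, quantile normalized, 17 of 27 M-phase genes were lower at 25 and 24 of 27 were higher at 75 mg/kg/day, and with the LOWESS ratios deposited by the authors 27 of 27 were lower at 25. The number of members at an unadjusted p under 0.05 at 25 mg/kg/day also depended on single animals. It was 8 of 40, all lower, without control replicate 2 (5.04% of all probes downwards), 5 without control replicate 1, 4 without replicate 9, 0 without control replicate 5 or replicate 6, and 1 to 3 without any other. With all arrays it was 6, all lower, with the authors' ratios (4.99% of all probes downwards). It was 4, all lower, without background correction (4.22%) or with the mean over a gene's present probes (3.62%). With the liver channel alone or with median centring it was 0 (2.43% and 0.501%). At 75 mg/kg/day it went from 0 to 5, all lower, without replicate 16, where 4.78% of all probes did so. With all arrays at that dose it was 4, all lower, with the authors' ratios (7.75% of all probes downwards). With the liver channel alone it was 4, all higher (4.41% upwards). The count of M-phase genes lower at 50 mg/kg/day was 15 of 27, in place of 23, without control replicate 3 or 5. It was 16 without control replicate 4 or replicate 11 or 13, and 14 without replicate 14.

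The list varied together from animal to animal. The mean deviation of the 27 M-phase genes from their control means was -0.20, -0.35, 0.12, 0.19 and 0.24 in control replicates 1 to 5, -0.26, -0.17, -0.16, -0.02 and -0.21 at 25, -0.11, 0.09, -0.19, -0.28 and 0.17 at 50, and 0.17, -0.07, -0.07, -0.14 and 0.02 at 75 mg/kg/day. The controls spanned the widest range, and every exposed animal lay within it. In control replicates 4 and 5, 25 and 26 of the 27 genes lay above the mean of the control group, and in replicates 1 and 2 only 5 and 1. All 5 animals at 25 mg/kg/day lay below the control mean, with an SD between animals of 0.090 against 0.261 in the controls, 0.188 at 50 and 0.121 at 75 mg/kg/day. Among 27 M-phase genes, control replicate 5 had the highest value of all 20 animals for 8 and control replicate 2 the lowest for 9.

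The replication genes followed the M-phase genes in several animals. Their mean deviation was -0.11, -0.22, 0.02, 0.13 and 0.18 in control replicates 1 to 5, so the same 2 controls were lowest and the same 2 highest. At 25 mg/kg/day it ranged only from -0.07 to 0.01, and at 75 mg/kg/day from -0.05 to 0.11. At 50 mg/kg/day replicate 15 stood at 0.36, with 12 of 13 genes above the group mean, while the others of the group lay between -0.09 and 0.02. That animal was also at 0.17 for the M-phase genes, with 24 of 27 above the group mean, and its replication genes were the highest of all 20 animals for 5 of 13.

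**Figure D3:**
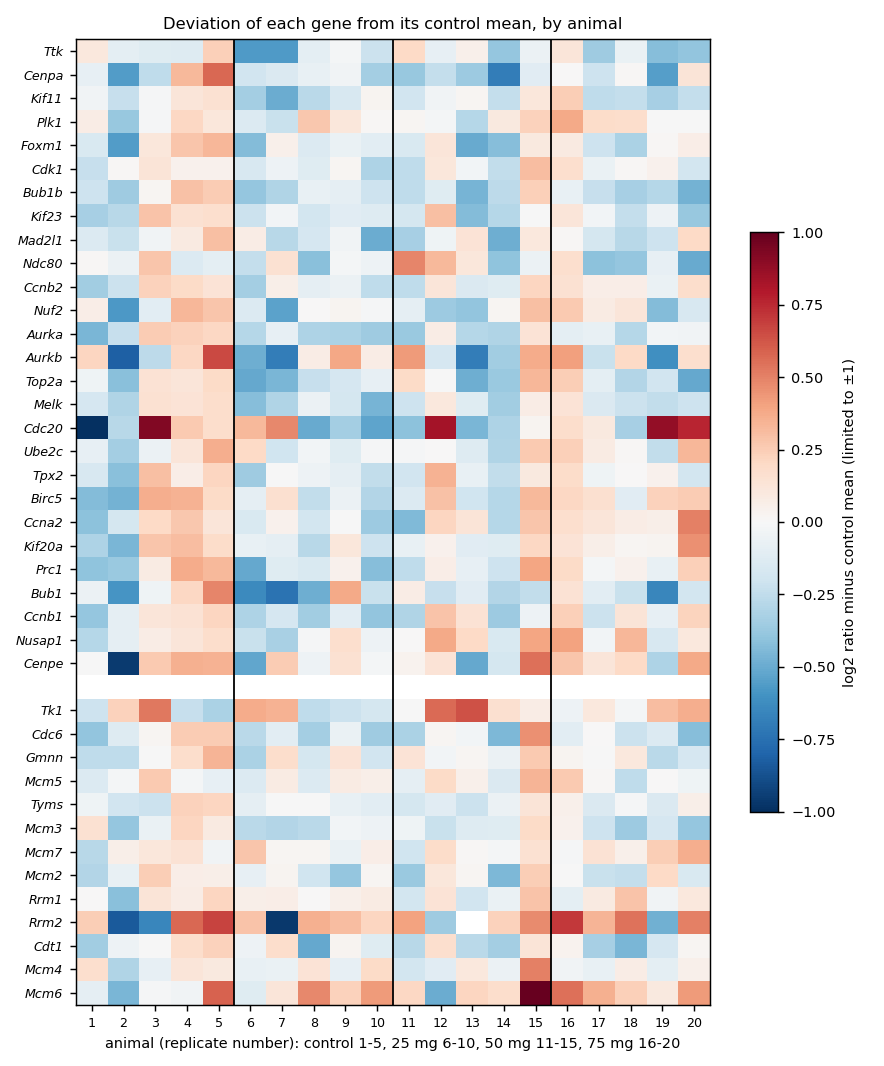
Log2 ratio of each gene (rows, M-phase above, replication below) in each animal (columns) minus the control mean of the gene, with red for higher and blue for lower values, limited to ±1, and white for no value. In the M-phase rows the columns of replicates 6, 7, 8 and 10 at 25 mg/kg/day are mostly blue, as are those of control replicates 1 and 2 and of replicate 14. Replicate 9, also at 25 mg/kg/day, has an M-phase mean of only -0.02. The columns of control replicates 4 and 5 and of replicates 15 and 16 are mostly red.

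The arrays lay on slides of 4, and slides 1 to 3 each held 1 animal of every group. On slide 1 the M-phase median of the exposed animal minus the control was -0.25, 0.01 and -0.25 at 25, 50 and 75 mg/kg/day, on slide 2 it was -0.40, -0.51 and -0.31, and on slide 3 it was -0.01, 0.08 and 0.30. On slide 6, with 2 controls and 2 animals at 50 mg/kg/day, it was 0.10. The sign thus differed between slides at 50 and 75 mg/kg/day, and the controls on slides 2 and 3 were the animals with the highest and a low M-phase mean, replicates 5 and 1. With slide as a block the M-phase median was -0.18, -0.06 and -0.07 and limma still called 0 members at each dose. Position on the slide nearly coincided with dose, and the effects of the 2 cannot be told apart.

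**Figure D4:**
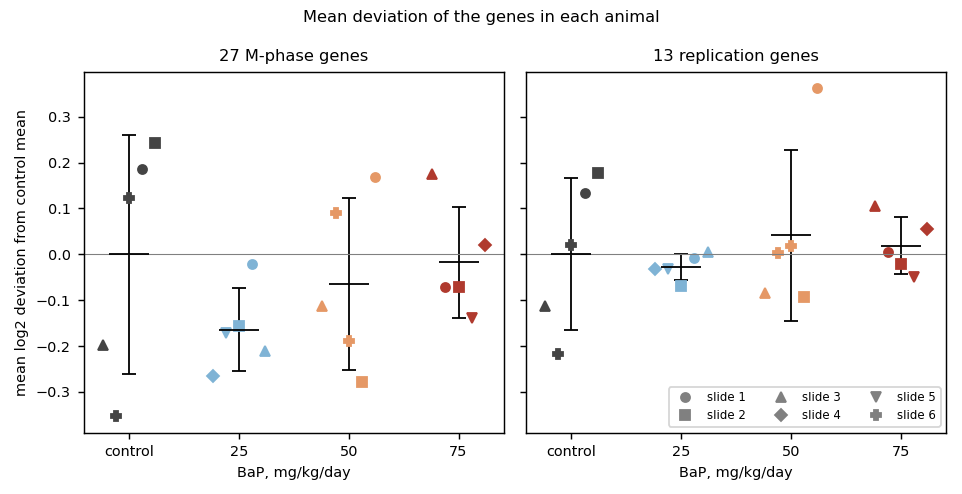
Mean deviation of the 27 M-phase (left) and 13 replication genes (right) from their control means in each animal (vertical axis, log2), by BaP dose (horizontal axis), with marker shapes for the slide and horizontal lines and bars for the mean ± SD of 5 animals. The control animals span -0.35 to 0.24 on the left, and replicate 15 stands at 0.36 on the right.

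Markers of other cell types and the brightness of the arrays were read beside these values. The mean deviation of the 7 hepatocyte markers ranged from -0.62 to 0.64 in the controls, 0.01 to 0.63 at 25, 0.06 to 0.53 at 50 and 0.13 to 0.47 at 75 mg/kg/day. These lay inside the wide range of the controls, but every exposed animal lay above the control mean. All 7 markers were higher at each dose, with median log2 differences of 0.30, 0.23 and 0.37. At 75 mg/kg/day 3 of the 7 had an unadjusted limma p under 0.05 upwards, against 6.52% of all probes, and 0 were called. That of the 7 endothelial markers ranged from -0.51 to 0.39, 0.14 to 0.67, 0.12 to 0.55 and 0.24 to 0.95, and that of the 7 Kupffer cell markers from -0.23 to 0.18, -0.08 to 0.44, 0.03 to 0.82 and 0.01 to 0.67. *Lyve1* of the endothelial and *Marco* of the Kupffer list were called higher at 75 mg/kg/day. Single genes weighed on these means. At that dose the median log2 difference was 0.30 for the endothelial list, with a maximum of 2.23. For the Kupffer list it was 0.12, with a minimum of -0.30 and a maximum of 2.19. The B cell (3 of 5 present), T cell (5 of 6), erythroid (4 of 6) and neutrophil precursor (4 of 7) lists, markers of blood cells and their precursors, had 0 called genes at each dose, and the markers not above background included *Cd79a*, *Epb42*, *Elane*, *Camp* and *Ngp*. The 4 erythroid markers ranged from -0.11 to 0.22 in the controls and from 0.16 to 0.52 at 25, 0.10 to 0.37 at 50 and 0.04 to 0.44 at 75 mg/kg/day. The 5 T cell markers ranged from -0.09 to 0.07 in the controls and from -0.22 to 0.01, -0.24 to 0.10 and -0.20 to -0.04 at the 3 doses, and the 4 neutrophil precursor markers from -0.05 to 0.07 and from -0.22 to 0.13, -0.22 to 0.06 and -0.22 to 0.01. The 3 B cell markers ranged from -0.34 to 0.27 in the controls and from -0.13 to 0.01, -0.22 to 0.26 and -0.12 to 0.30. In the liver channel, 67.5% of spots stood well above background in control replicate 4 and 51.9 to 54.3% in the other controls. The shares were 55.5 to 61.0%, 52.5 to 62.4% and 53.0 to 61.4% at the 3 doses. Every array at 25 mg/kg/day thus lay above all controls but replicate 4. The part of these in the values of the list was not tested.

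Among the regulators of entry into mitosis, *Cdk1*, the kinase itself, varied least, with a pooled SD of 0.165. In the controls its log2 ratio was -2.38, -2.15, -2.03, -2.11 and -2.11, and at 75 mg/kg/day it was -1.98, -2.22, -2.15, -2.11 and -2.34. The difference from the controls was -0.12, -0.02 and -0.01 at 25, 50 and 75 mg/kg/day (SE 0.11), and the interval at 75 mg/kg/day ran from 0.850-fold to 1.17-fold. *Foxm1* differed by -0.14, -0.17 and -0.07 (SE 0.16), and *Ccnb2* by -0.14, -0.04 and 0.08 (SE 0.12). *Ccna2*, cyclin A, differed by 0.19 ± 0.15 (SE) at 75 mg/kg/day, with 1 of 5 animals above all controls and a limma adjusted p of 0.684.

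*Ccnb1*, cyclin B1, was read by 3 present probes. The brightest differed by -0.27, -0.06 and 0.06 (SE 0.14) at the 3 doses and was well above background on all 20 arrays. Another was so on 13 arrays (3 of 5 controls and 4, 2 and 4 of 5 animals at 25, 50 and 75 mg/kg/day) and differed by -0.37, -0.26 and -0.29 (SE 0.14), so at the highest dose these probes did not have the same sign. Neither was called, with a limma adjusted p of 0.636 or above at 25 and of 0.458 or above at 75 mg/kg/day. The last was so on 3 arrays and on none of the controls, and its differences are not given.

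The M-phase genes of lowest p at 25 mg/kg/day, by the brightest probe, were *Melk*, *Ttk*, *Kif11*, *Aurka* and *Ccnb1*. *Melk*, a kinase of dividing cells, had log2 ratios of -3.51, -3.65, -3.19, -3.21 and -3.17 in the controls and -3.77, -3.65, -3.40, -3.52 and -3.81 at 25 mg/kg/day. The groups overlapped, with 2 of 5 exposed animals below all controls, and the difference was -0.29 ± 0.12 (SE, limma adjusted p = 0.636). *Kif11*, the kinesin that pushes the spindle poles apart, had log2 ratios of -2.02, -2.21, -2.00, -1.87 and -1.83 in the controls and -2.33, -2.49, -2.26, -2.15 and -1.96 at 25 mg/kg/day. Of these, 3 of 5 lay below all controls, and the difference was -0.25 ± 0.12 (SE, limma adjusted p = 0.640). At 75 mg/kg/day 4 of 5 animals lay below all controls for *Kif11* and replicate 16, at -1.74, lay above them all, with a difference of -0.16 ± 0.12 (SE, limma adjusted p = 0.636).

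*Ttk*, the checkpoint kinase Mps1, was well above background in 1 of 5 controls, in no animal at 25 or 50 and in 2 of 5 at 75 mg/kg/day. Its mean log2 signal in the liver channel was 6.45 in the controls, 6.41 at 25 and 6.44 at 50 mg/kg/day, so no fold is given. *Ttk* is the second of the 2 members with an unadjusted p under 0.05 at 25 mg/kg/day, so that value rests on signals near background. *Aurka*, the centrosome kinase, differed by -0.27 ± 0.13 at 25 and -0.15 ± 0.13 at 50 mg/kg/day (SE), and none of these 10 animals lay below all controls. *Top2a*, the topoisomerase that untangles sister chromatids, differed by -0.29, -0.07 and -0.17 (SE 0.16) at the 3 doses. *Prc1*, which bundles the midzone of the spindle, differed by -0.23, -0.02 and 0.08 (SE 0.16).

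At 50 mg/kg/day the lowest p among M-phase genes was that of *Cenpa*, the histone that marks the centromere. Its log2 ratios were -2.05, -2.53, -2.22, -1.64 and -1.39 in the controls and -2.34, -2.20, -2.33, -2.66 and -2.08 in the exposed animals. Only 1 of 5 exposed animals lay below all controls, and the difference was -0.36 ± 0.17 (SE, limma adjusted p = 0.746). *Nusap1*, a spindle protein, lay above all controls in 3 of 5 animals at that dose, with a difference of 0.16 ± 0.13 (SE, limma adjusted p = 0.853).

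At 75 mg/kg/day it was that of *Bub1b*, the checkpoint kinase-like protein BubR1. Its log2 ratios were -2.41, -2.56, -2.18, -1.90 and -1.94 in the controls and -2.27, -2.43, -2.53, -2.48 and -2.67 in the exposed animals. The groups overlapped, with 1 of 5 exposed animals below all controls, and the difference was -0.28 ± 0.14 (SE, limma adjusted p = 0.452). At 50 mg/kg/day *Bub1b* differed by -0.17 ± 0.14 (SE). *Ndc80*, of the outer kinetochore, was below all controls in 3 of 5 animals at 75 mg/kg/day, with a difference of -0.24 ± 0.16 (SE, limma adjusted p = 0.582). It was well above background on 12 of 20 arrays.

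*Birc5*, or survivin, of the chromosomal passenger complex, split the controls. Its log2 ratios were -4.10, -4.14, -3.29, -3.31 and -3.47 in the controls, and -3.45, -3.50, -3.77, -3.43 and -3.41 at 75 mg/kg/day. All of the exposed animals lay between the lowest and the highest control, and the difference was -0.11, 0.00 and 0.15 (SE 0.17) at the 3 doses. *Cdc20*, the activator of the anaphase-promoting complex, varied more than any other member, with a pooled SD of 0.574, a value above that of 97.4% of all present probes. It had log2 ratios of -4.43, -3.62, -2.42, -3.08 and -3.17 in the controls alone. *Aurkb*, the passenger complex kinase, and *Cenpe* had pooled SDs of 0.475 and 0.394.

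Among the replication genes, no licensing factor passed the test. *Cdt1* differed by -0.10, -0.12 and -0.18 (SE 0.15) at 25, 50 and 75 mg/kg/day, and its inhibitor *Gmnn* by -0.07, 0.07 and -0.06 (SE 0.13). *Cdc6*, which loads the helicase with *Cdt1*, differed by -0.23 ± 0.15 (SE, limma adjusted p = 0.715) at 25 mg/kg/day, the lowest difference of the 13 replication genes at that dose. Its second present probe was well above background in none of the controls and in 1 of 5 animals at 25 mg/kg/day, and its differences are not given. No exposed animal at 25 mg/kg/day lay below all controls for the brighter probe.

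The subunits of the Mcm2-7 helicase lay on both sides of the controls. *Mcm5* differed by -0.01, 0.07 and -0.01 (SE 0.11) and *Mcm2* by -0.13, -0.09 and -0.08 (SE 0.14) at the 3 doses. *Mcm3* had the lowest p of the replication genes at 75 mg/kg/day, where its log2 ratios were -2.31, -2.56, -2.72, -2.53 and -2.74, against -2.20, -2.74, -2.42, -2.14 and -2.26 in the controls. The groups overlapped, and the difference was -0.18 ± 0.12 at 25 (limma adjusted p = 0.707) and -0.22 ± 0.12 at 75 mg/kg/day (limma adjusted p = 0.497). *Mcm7* lay above all controls in 3 of 5 animals at 75 mg/kg/day, with a difference of 0.16 ± 0.10 (SE, limma adjusted p = 0.589).

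*Mcm6* varied most of the helicase subunits, with a pooled SD of 0.429. Its log2 ratios were -4.26, -4.62, -4.18, -4.21 and -3.58 in the controls, -3.96, -4.67, -3.95, -4.00 and -2.71 at 50 and -3.61, -3.81, -3.93, -4.07 and -3.75 at 75 mg/kg/day. The highest and the lowest of these values both came from animals at 50 mg/kg/day, replicates 15 and 12. The difference was 0.31 ± 0.25 at 50 (SE, limma adjusted p = 0.848) and 0.33 ± 0.25 at 75 mg/kg/day (SE, limma adjusted p = 0.648).

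The nucleotide enzymes held the least and one of the most variable members. *Tyms*, thymidylate synthase, had the lowest pooled SD of the list, 0.138, and differed by -0.09 ± 0.10 (SE) at 50 mg/kg/day. *Rrm2*, the small subunit of ribonucleotide reductase, had a pooled SD of 0.542, with log2 ratios of -2.87, -3.95, -3.76, -2.54 and -2.44 in the controls and -2.41, -2.77, -2.57, -3.59 and -2.61 at 75 mg/kg/day. Its difference was 0.04 ± 0.31 at 25, 0.19 ± 0.33 at 50, where 1 array had no value, and 0.32 ± 0.31 (SE) at 75 mg/kg/day. The interval at 75 mg/kg/day ran from 0.794-fold to 1.97-fold, so a rise of 1.5-fold in *Rrm2* lay inside it. *Tk1* differed by 0.29 ± 0.18 (SE, limma adjusted p = 0.782) at 50 mg/kg/day, with 2 of 5 animals above all controls.

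The wider pathway gave no call either. Of 47 further genes of mitosis 43 were matched and 41 were present, and 37, 32 and 29 of the 41 were lower at 25, 50 and 75 mg/kg/day, with medians of -0.18, -0.05 and -0.08 and 0 called. An unadjusted p under 0.05 was reached downwards by 3, 1 and 1 of them, against the 3.62%, 2.94% and 4.69% of all probes given above, and upwards by none. The lowest p at 75 mg/kg/day was that of *Kif15*, a spindle kinesin, at -0.54 ± 0.16 (SE, limma adjusted p = 0.224), with 3 of 5 animals below all controls, followed by *Cenpn* at -0.23 ± 0.12 (SE). Upwards the lowest p-values were those of *Pbk* at 0.20 ± 0.15 and *Ect2* at 0.24 ± 0.18 (SE).

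Of 39 further replication genes 35 were present, with 23, 27 and 25 lower at the 3 doses, medians of -0.06, -0.07 and -0.07 and 0 called. Of these genes, 2 had an unadjusted p under 0.05 at the lowest dose, both lower, against 3.62% of all probes downwards. At the middle dose 1 did, higher, against 3.75% of all probes upwards. None did at the highest dose, against 4.69% downwards and 6.52% upwards. At 75 mg/kg/day the lowest p-values belonged to *Cdc45*, a helicase partner, at -0.26 ± 0.14 and the polymerase gene *Pole* at -0.21 ± 0.12 downwards, and to *Rpa1* at 0.21 ± 0.12 and the chromatin assembly gene *Chaf1b* at 0.25 ± 0.14 upwards (SE). Of the 12 subunits and partners of the MuvB and DREAM complexes, 11 were present, with medians of 0.00, -0.01 and 0.02 and 0 called, and 1 had an unadjusted p under 0.05 at the middle and 1 at the highest dose, both lower. Among them *E2f5* differed by -0.27 ± 0.12 and *Lin52* by -0.21 ± 0.14, and *Rbl1* by 0.08 ± 0.11 and *Lin54* by 0.08 ± 0.14 (SE) at 75 mg/kg/day.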

How the data were processed

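Liver RNA of 20 male Muta™Mouse animals (5 controls and 5 at each of 3 BaP doses) was hybridized against a universal reference on Agilent two-color arrays with 45018 features. The authors deposited median spot and background intensity in both channels from Feature Extraction, without normalization, processed intensity values that the software had background subtracted and dye normalized, and log2 ratios that they had normalized by LOWESS. Here the median intensities were corrected for background by normexp (offset 50), normalized by within-array loess and expressed as log2 ratios, with the mean taken for spots of the same probe (41174 probes), in R 4.3.3 with limma 3.58.1. Outlier spots were left out, and 0 spots were saturated. Presence required a liver signal 3 trimmed SDs above the mean (5% trim) of 153 negative controls on 4 or more of the 5 arrays in 1 or more groups. Probes were named through RefSeq accessions (23374 of 41174). The study left out a sample without naming it, and all 20 arrays were used here. The number of arrays limits the precision.

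One limma model over 20 arrays compared each dose with the controls (two-sided), with Benjamini-Hochberg adjustment over 27346 present probes, and a second took dose as a number. MAANOVA, which the methods name, was not used here. The fit was tested on simulated data. In each contrast, values are given for up to 5 M-phase and 3 replication members of lowest p and for members called or separated from the controls. At every dose they are given for 12 genes, the landmark genes with a probe together with *Birc5*, *Ccnb2* and *Prc1* of the RT-PCR array. Of the wider lists, up to 2 genes per direction are given at 75 mg/kg/day. *Cdkn1a*, *Marco* and *Lyve1* lie outside this rule and were chosen after their values were seen, as were the variable members. The members and lists were chosen with earlier results of these data known. The promoter windows are RefSeq's. Figures were drawn with Python 3.11.15, pandas 2.3.3 and matplotlib 3.10.9. Alternatives changed the background correction, scaling, filter, probe choice, slide term and set of arrays.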

Additional observations from a re-analysis of the deposited data

Results flagged for a closer look

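Among 115 groups of 5 animals checked (the named members and the 2 list means in each group), 8 held an animal set apart from the others by over 0.71 of the range of the group, and chance flags about 1 in 20 groups. At 75 mg/kg/day these were replicate 16 for *Kif11* (gap over range 0.834) and *Melk* (0.747), replicate 18 for *Birc5* (0.744) and *Aurka* (0.726), and replicate 20 for *Ccna2* (0.762). *Kif11* stood at -1.74 in replicate 16, with the nearest other animal at -2.23. At 25 mg/kg/day replicate 7 was set apart for *Rrm2* (0.894), at -4.08 with the nearest other at -2.89, and for *Aurka* (0.736). At 50 mg/kg/day the mean of the 13 replication genes was set apart in replicate 15 (0.756), at 0.362 with the nearest other animal at 0.0182.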

How the results depend on the processing

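Under 31 alternatives, limma called 0 members at each dose, and 0 for the trend and for any difference among groups where these were fitted. One of them, slides 1 to 3 alone with slide as a block, was chosen after seeing the data. Of 1765 values of named members under the alternatives, 111 changed sign and none was called, the lowest adjusted p being 0.15. The list medians moved by more than the SD between animals only under median centring in place of loess, to 0.0609 (M phase) and 0.224 (replication) at 25, to -0.208 (replication) at 50 and to 0.166 (M phase) and 0.176 (replication) at 75 mg/kg/day. The cause was not tested. Leaving out single animals gave M-phase medians of -0.274 to -0.095 at 25, -0.127 to -0.001 at 50 and -0.144 to 0.044 at 75 mg/kg/day, the extremes at 25 without control replicates 2 and 4. No paired analysis was possible because the replicate numbers, 1 to 20, are not shared between groups, and the animals that share a slide were instead compared with slide as a block and within slides. Dim probes limit what can be said of 6 M-phase genes, *Ttk* most of all, and of the weaker probes of *Ccnb1* and *Cdc6*.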
